A study of Mus musculus with 11 samples.

Results

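E14 control cells, a mouse embryonic stem cell (ESC) line, were compared between ESC medium and 3 days in N2B27, a serum-free medium with defined supplements in which ESCs leave pluripotency. The 3 arrays of E14 control cells in N2B27 and the 3 of E14 control cells in ESC medium are 6 of the 11 arrays of the series. All 19935 genes whose transcript clusters carry a single gene symbol were compared between them. The E14 cells are labelled wild type. The other 5 arrays hold Bmpr1a-/- ESCs, without 1 of the type I receptors that bind bone morphogenetic proteins (BMPs), 2 in ESC medium and 3 after the same time in N2B27. The labels name the mutant lines C1-6, Fr124 and Fr88 but not the line on each array. They describe the ESC medium only as the standard one, so the presence of serum, leukaemia inhibitory factor (LIF) or feeder cells in it is not given. Nothing in them tells separate cultures from repeat preparations of a culture, so the p-values rest on a spread among arrays that may be technical.

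Mouse ESCs resemble the naive epiblast of the preimplantation embryo. LIF acts through the kinase JAK and the factor STAT3 to sustain the naive network of transcription factors, and serum or BMP induces Id genes that hold back neural differentiation. When these inputs are withdrawn, autocrine fibroblast growth factor (FGF) signalling carries cells through a formative state that resembles the epiblast after implantation, and from there to neural progenitors.

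Each value is a log2 signal centred on a baseline of its own gene, so only differences within a gene carry meaning and no gene can be called abundant or absent. For the same reason the presence of ESC markers could not be checked in absolute terms, but Pou5f1, Sox2, Nanog, Zfp42 and Esrrb, which define ESCs, were all lower after N2B27. In bulk RNA, fewer cells of a type and less RNA per cell cannot be told apart. Calls are limma tests with a Benjamini-Hochberg adjusted p under 0.05 over all genes, and "rose" or "fell" is written only of called genes. Every difference is the control mean in N2B27 minus the control mean in ESC medium on the log2 scale, with its standard error (SE). Array values are given in the order of the labelled numbers 1, 2 and 3.

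The microRNA loci that changed are shown first, because all 5 members of 1 cluster rose. The other 18 of the 23 listed microRNA loci that were measured were not called. The share called, 21.7%, was no higher than the 26.1% of all genes, of which 12.8% were called higher. The miR-302 cluster is transcribed in pluripotent cells and its microRNAs restrain cell cycle inhibitors and differentiation genes. Its hairpins lie on chromosome 3 (chr3:127545228-127545807, GRCm38.p6, plus strand), a stretch of 580 bases inside the span of Larp7. The mature sequences are RefSeq's, 5′ to 3′, with the seed (bases 2 to 8) in capitals.
miR-302b-3p: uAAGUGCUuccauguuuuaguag
miR-302d-3p: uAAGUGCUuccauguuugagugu
miR-302c-3p: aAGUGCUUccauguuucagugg
miR-367-3p: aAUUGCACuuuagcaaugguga
miR-302a-5p: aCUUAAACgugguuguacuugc
miR-302b-3p and miR-302d-3p share the seed AAGUGCU, miR-302c-3p has AGUGCUU and miR-367-3p has AUUGCAC. On the 5′ arm, miR-302b, miR-302c and miR-302d share CUUUAAC.

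The medium accounted for most of the variation between the 6 arrays. The first principal component held 81.4% of the variance, with the ESC arrays between -38.2 and -23.2 and the N2B27 arrays between 27.6 and 31.1. The second, with 8.09%, set the arrays numbered 1 of both media (11.95 and 14.5) apart from the other 4. Over all genes, these arrays lay 0.135 and 0.122 from their group mean (root mean square), against 0.0848 to 0.0963 for the others. Same-numbered arrays deviated together, with correlations across genes of 0.131 to 0.181, so a fit with the number as a block is given wherever it changes a call.

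Leaving ESC medium changed about 1 gene in every 4. Of 19935 genes, 5205 were called (26.1%), 2554 higher in N2B27 (12.8%) and 2651 lower (13.3%). The difference was at least 1, on the log2 scale, for 329 of the higher genes (1.65%) and 363 of the lower (1.82%). The median over all genes was 0.02, with quartiles at -0.11 and 0.13. In 8746 genes (43.9%) the arrays of the 2 media did not overlap. These shares are the background against which the counts of each gene list are to be read. Some genes are in more than 1 list, so the counts of different lists are not separate results.

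**Figure D1:**
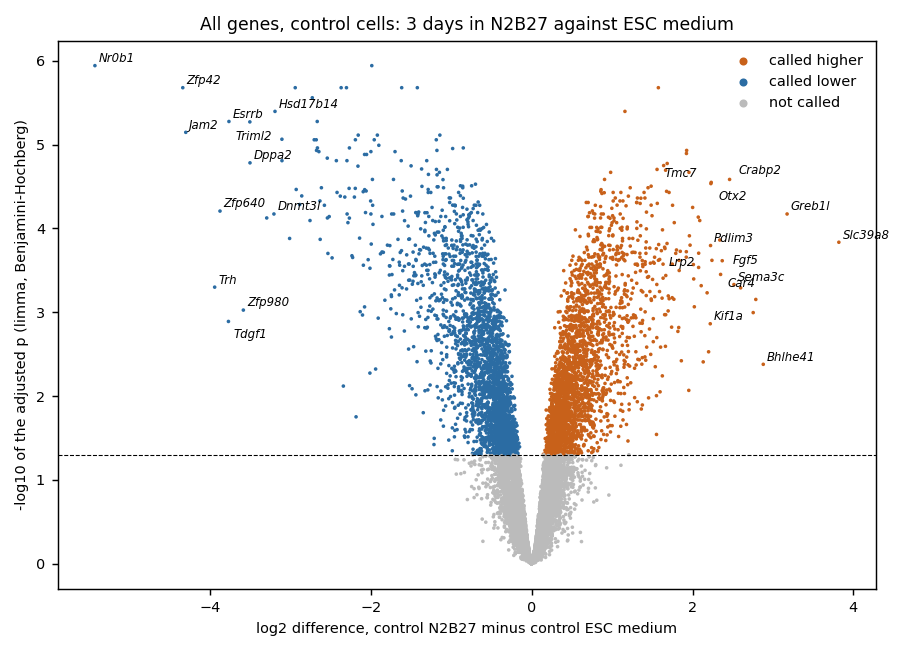
Each point is a gene. The horizontal axis is the log2 difference (control N2B27 minus control ESC medium), the vertical axis is −log10 of the limma adjusted p, and the dashed line marks adjusted p of 0.05. The labelled genes are the 12 largest increases and 12 largest decreases, and the decreases reach further (-5.43 for Nr0b1) than the increases (3.82 for Slc39a8).

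The largest decreases were pluripotency genes. Nr0b1, a nuclear receptor of the naive network, read 4.09, 3.55 and 3.40 in ESC medium and -1.61, -1.84 and -1.81 in N2B27, a difference of -5.43 (SE 0.20, limma adjusted p = 1.14e-06), or 43.2-fold lower. Zfp42 (Rex1), the standard reporter gene of naive cells, read 2.82, 2.22 and 2.45 against -1.57, -2.14 and -1.82 (-4.34, SE 0.19, limma adjusted p = 2.09e-06). For neither gene did any N2B27 array come within 3 log2 units of an ESC array.

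Jam2, a junction adhesion molecule gene expressed in ESCs, fell by 4.30, although with a prior variance that follows the mean centred value it was not called (limma adjusted p = 0.353). Trh, which encodes thyrotropin-releasing hormone, fell by 3.94, as did Tdgf1 (Cripto), the NODAL coreceptor gene (-3.77), and Esrrb, an orphan receptor gene of the naive network (-3.77). Array 1 in N2B27 was lowest for Trh (-4.63 against -2.72 and -2.77) and for Tdgf1 (-3.67 against -1.54 and -1.13), and without it both still fell (-3.31 and -2.99). Dppa2, a chromatin factor gene, fell by 3.50, Dnmt3l, the cofactor gene of the de novo DNA methyltransferases, by 3.21, and the list of 12 also holds Triml2 (-3.51) and Hsd17b14, a steroid dehydrogenase gene (-3.19). The zinc finger genes Zfp640 (-3.88) and Zfp980 (-3.59) belong to families of near-identical copies, so probes may not separate them from relatives.

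Slc39a8 (ZIP8), a zinc and manganese importer gene, rose most. It read -1.74, -1.04 and -1.02 in ESC medium and 2.18, 2.48 and 2.99 in N2B27 (3.82, SE 0.40, limma adjusted p = 0.000146). Greb1l, a developmental coregulator gene linked to retinoid responses, rose by 3.18 and Bhlhe41, a circadian repressor gene, by 2.88, with array 1 in N2B27 highest for the latter (2.84 against 1.27 and 1.55) and a difference of 2.40 without it. The axon guidance ligand gene Sema3c rose by 2.51, the retinoic acid carrier gene Crabp2 by 2.46, Fgf5, the classic mark of the postimplantation epiblast, by 2.37, and Otx2, a formative and anterior neural factor gene, by 2.23. Car4 (2.35), Lrp2 (2.24), Tmc7 (2.23), Pdlim3 (2.22) and Kif1a (2.22) complete the 12 largest increases. They encode a carbonic anhydrase, an endocytic receptor of the neural epithelium, a transmembrane channel-like protein, an actin-associated protein and a kinesin of axonal transport. Arrays that do not overlap between the media were a condition for entering either list of 12, and 43.9% of all genes met it.

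The whole naive pluripotency list fell. All 23 measured members were lower and called, with differences from -5.43 to -0.67 and a median of -2.27, against 13.3% of all genes called lower. On each array the median over the list was 1.41 to 1.74 in ESC medium and -0.64 to -0.63 in N2B27, and no member had overlapping media. Tfcp2l1, a target of STAT3, fell from 1.74, 1.58 and 1.76 to -0.65, -1.21 and -1.05 (-2.67, SE 0.16, limma adjusted p = 1.10e-05). Tet2, a 5-methylcytosine oxidase gene, fell by 2.68 and Klf4, a reprogramming factor gene, by 2.27. Tbx3 fell by 1.62, Prdm14, the repressor gene that shields naive cells from FGF signalling, by 1.29, and Gbx2 by 1.13.

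The fall of Nanog varied between arrays. Nanog read 0.75, 0.61 and 0.66 in ESC medium and -0.91, -0.45 and 0.08 in N2B27 (-1.10, SE 0.30, limma adjusted p = 0.0229). The 3 N2B27 arrays lay below the ESC arrays but spread over about 1 log2 unit among themselves. The call was lost without ESC array 1, 2 or 3 (limma adjusted p = 0.0662, 0.0543 and 0.0543), without N2B27 array 1 or 2 (0.085 and 0.060), and under quantile normalization of the centred values (0.0563), while the difference stayed between -1.19 and -0.86 in these settings.

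Many factors shared by naive and later pluripotent cells fell. Of 22 general pluripotency genes, 13 fell, 3 rose and 6 were not called (median -0.53). Pou5f1 (Oct4) read 0.17, 0.17 and 0.08 against -0.85, -0.56 and -0.59 (-0.80, SE 0.10, limma adjusted p = 0.000412), a 1.75-fold decrease. Sox2, its partner factor, fell by 1.42 (SE 0.18, limma adjusted p = 0.000454) from 0.80, 0.59 and 0.63 to -0.79, -0.55 and -0.89. The groups of both genes were well separated. Dppa5a, an RNA-binding protein gene of ESCs, fell by 2.76 and Zfp57, which protects imprints, by 1.79. Lin28a, which encodes the RNA-binding protein that blocks let-7 maturation, went the other way and rose by 0.59 (SE 0.07), from -0.13, -0.04 and -0.22 to 0.46, 0.45 and 0.48.

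**Figure D2:**
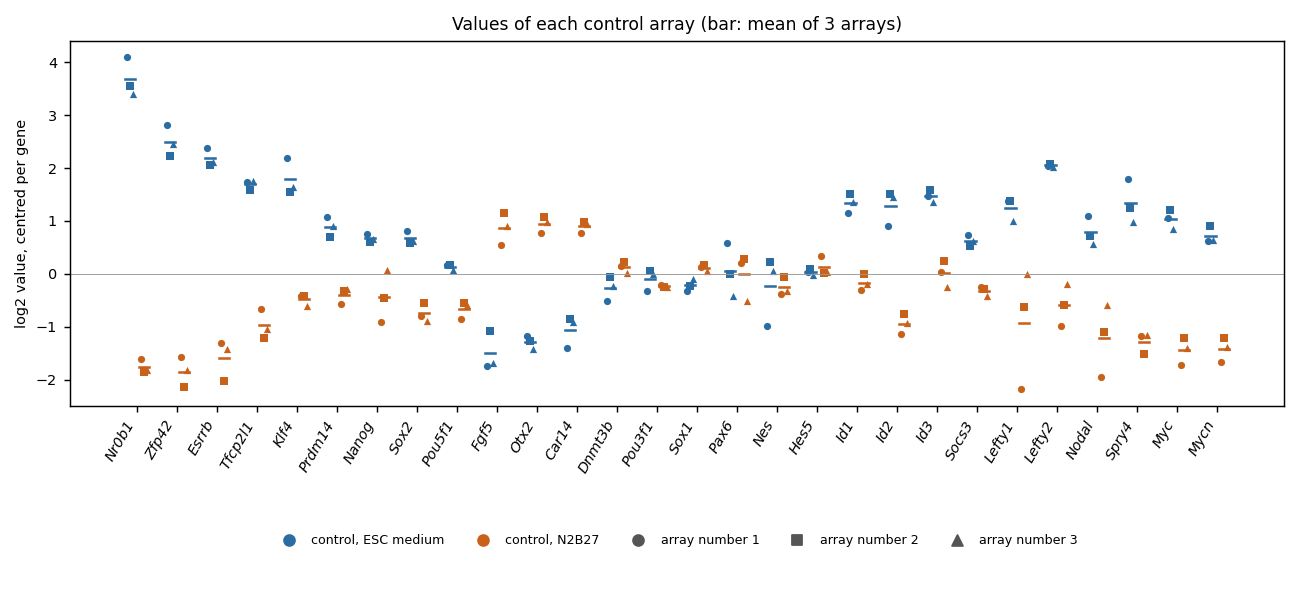
The vertical axis is the centred log2 value of each control array for the genes on the horizontal axis, with blue for ESC medium, orange for N2B27, marker shapes for array numbers and bars for the mean of 3 arrays. Naive genes from Nr0b1 to Prdm14 separate fully with N2B27 below, Fgf5, Otx2 and Car14 separate with N2B27 above, and Pax6, Nes and Hes5 overlap.

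Formative epiblast genes moved in both directions. Of 23, 11 rose, 4 fell and 8 were not called (median 0.40, or 0.27 without ESC array 1 and 0.50 without ESC array 2). Otx2 read -1.16, -1.26 and -1.41 in ESC medium and 0.78, 1.08 and 0.99 in N2B27 (SE 0.17, limma adjusted p = 2.92e-05). Fgf5 read -1.75, -1.08 and -1.67 against 0.54, 1.15 and 0.91 (SE 0.28, limma adjusted p = 0.000243). Car14, a membrane carbonic anhydrase gene, rose by 1.96 and Fzd2, a WNT receptor gene, by 1.19.

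Pou3f1 (Oct6), also a formative and early neural factor gene, read -0.32, 0.05 and 0.00 against -0.21, -0.24 and -0.25, with overlapping groups (-0.14, limma adjusted p = 0.622). Fgf15 fell by 1.94. Dnmt3b, a de novo DNA methyltransferase gene, rose by 0.40 (limma adjusted p = 0.0334). That call was lost without ESC array 1 (0.27, limma adjusted p = 0.11) or 3 (0.42, 0.0661), without N2B27 array 1 (0.39, 0.0862) or 2 (0.34, 0.113), and with the 6 control arrays alone (0.0511).

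The 5 loci of the miR-302 cluster rose 4.59-fold or more. Mir302c read -1.54, -0.19 and -0.42 in ESC medium and 2.24, 2.31 and 1.65 in N2B27 (2.79, SE 0.39, limma adjusted p = 0.000704). Mir302a rose by 2.75 (SE 0.41), Mir302d by 2.60 (SE 0.35), Mir367 by 2.34 (SE 0.24) and Mir302b by 2.20 (SE 0.40). Array 1 was the lowest of the ESC arrays for all 5 loci, and every N2B27 array lay above every ESC array.

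These loci share 1 primary transcript and the probes read precursor RNA, so they count as a single event and do not give the level of the mature microRNAs. Larp7, a gene of the 7SK complex whose span holds the hairpins, read -0.46, -0.13 and -0.16 against 1.21, 0.65 and 0.50 (1.03, limma adjusted p = 0.0174). Larp7 and Mir302b were named after their values were seen. The other 18 of the 23 microRNA loci measured, among them members of the miR-17, miR-9, miR-124, miR-125, let-7, miR-183 and miR-200 families, were not called, with differences of -0.34 to 0.18. The median over the 23 loci was 0.03, and 21.7% of them were called, against 26.1% of all genes.

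**Figure D3:**
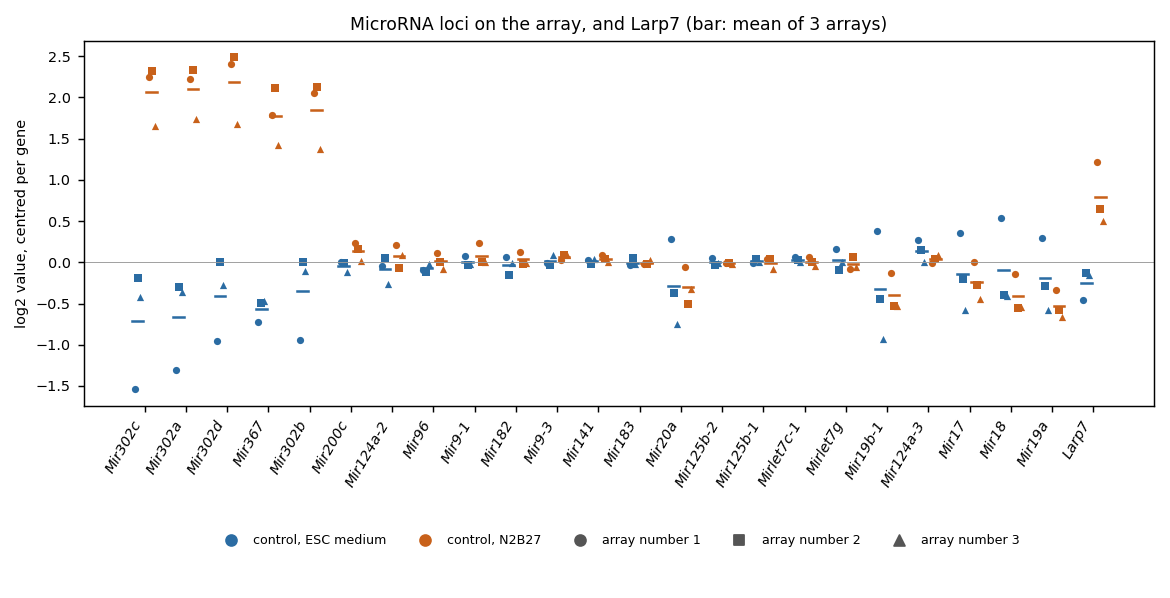
Centred log2 values (vertical axis) of the 6 control arrays are shown for 23 microRNA loci, ordered by their difference, and for Larp7, with bars at the mean of 3 arrays. The 5 loci of the miR-302 cluster separate by medium, from 2.20 to 2.79 log2 units between means, and the others lie between -0.34 and 0.18.

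Genes of the LIF and STAT3 pathway were called lower more often than higher. Klf4, Gbx2 and Tfcp2l1 are in this list and also in the naive list. Of 22 measured, 11 fell, 2 rose and 9 were not called, with a median of -0.70 (-0.84 without N2B27 array 3). At the receptor, Lifr fell from 1.43, 0.20 and 0.32 to -1.04, -1.19 and -1.08 (-1.75, SE 0.26, limma adjusted p = 0.000911). ESC array 1 stood above the other 2, and without it the difference was -1.36 (limma adjusted p = 4.21e-05). Jak2, a kinase gene of the pathway, rose by 1.55 (SE 0.36, limma adjusted p = 0.00991), from -0.27, -0.16 and -0.05 to 1.80, 0.83 and 1.53.

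Among targets, Socs3, the feedback inhibitor gene of STAT3 signalling, read 0.73, 0.54 and 0.63 against -0.25, -0.29 and -0.42 (-0.95, SE 0.08, limma adjusted p = 5.30e-05). Sgk1, a serum- and glucocorticoid-induced kinase gene, fell from 1.36, 1.10 and 1.04 to -1.58, -2.0 and -1.71 (-2.93, SE 0.23, limma adjusted p = 3.43e-05). In both genes the 2 media were far apart relative to the spread within each. Both carry the STAT motif (TTC, any 3 bases, GAA), a palindrome read the same on both strands, in the 250 bases before their annotated start. The RefSeq sequences (GRCm38.p6) follow, with the match in capitals, for Socs3 at chr11:117969367-117969616 on the minus strand and for Sgk1 at chr10:21881934-21882183 on the plus strand.
Socs3: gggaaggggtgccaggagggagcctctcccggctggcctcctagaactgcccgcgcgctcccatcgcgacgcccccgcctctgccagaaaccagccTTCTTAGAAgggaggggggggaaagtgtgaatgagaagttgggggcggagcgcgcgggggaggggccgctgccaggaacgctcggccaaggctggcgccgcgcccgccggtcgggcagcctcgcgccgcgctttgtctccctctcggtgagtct
Sgk1: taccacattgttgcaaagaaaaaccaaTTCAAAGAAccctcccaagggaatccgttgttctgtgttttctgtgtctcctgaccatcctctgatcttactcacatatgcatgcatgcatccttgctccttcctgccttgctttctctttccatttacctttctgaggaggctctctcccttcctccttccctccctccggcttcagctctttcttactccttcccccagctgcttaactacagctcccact
The match begins 154 bases before the start in Socs3 and 223 bases before it in Sgk1. It occurred in 3 of 21 promoters of the list (14.3%) and in 6.72% of 15561 promoters of measured genes. The share was 6.65% among genes called lower and 7.04% among genes not called. Whether the motif bears on the decreases was not tested.

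Genes of the FGF-ERK pathway moved in both directions, with 13 of 30 lower, 7 higher and 10 not called (median -0.26, or -0.37 without N2B27 array 1). Spry4, a feedback inhibitor gene induced by ERK, fell from 1.79, 1.24 and 0.99 to -1.18, -1.51 and -1.14 (-2.62, SE 0.20, limma adjusted p = 3.27e-05). Myc fell by 2.48. Among receptors, Fgfr2 rose from -0.45, -0.64 and -0.71 to 1.70, 1.45 and 1.27 (2.08, SE 0.23, limma adjusted p = 0.000198). The list thus held a lower feedback gene beside a higher ligand gene, Fgf5, and a higher receptor gene. FGF ligand genes did not move alike, since Fgf15 (-1.94) and Fgf4, a member of the naive list, fell.

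NODAL pathway genes also moved in both directions. Of 22 genes of the NODAL and activin pathway, 7 rose, 7 fell and 8 were not called. Their median was -0.01, and it was 0.01 without ESC array 3 or without N2B27 array 1. Nodal, the ligand gene, read 1.09, 0.72 and 0.57 against -1.95, -1.10 and -0.60 (-2.01, SE 0.41, limma adjusted p = 0.00532). Lefty2, which encodes a NODAL antagonist and is a NODAL target, read 2.04, 2.08 and 2.02 against -0.98, -0.58 and -0.19 (-2.63, SE 0.27). For both genes the N2B27 arrays were ordered alike, with array 1 lowest, and the differences without it were -1.65 and -2.43.

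Lefty1, the other antagonist gene, read 1.38, 1.37 and 1.01 against -2.17, -0.62 and 0.00 (-2.19, SE 0.57, limma adjusted p = 0.0177). It was not called without ESC array 1 (-2.12, limma adjusted p = 0.0534), ESC array 2 (-2.13, 0.0543) or N2B27 array 1 (-1.56, 0.0513). Smad7, an inhibitory SMAD gene, fell by 2.10, while the transducers Smad3 and Foxh1 rose by 1.35 (SE 0.11) and 0.75 (SE 0.07).

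BMP targets were called at a rate of 31.8%, against 26.1% of all genes, and most of those called fell. Of 22 BMP target genes, 6 fell, 1 rose (2 with array weights or with the 6 control arrays alone) and 15 were not called (median -0.07). Id1, Id2 and Id3, inhibitors of neurogenic factors, are direct targets in ESCs. Id1 read 1.16, 1.5 and 1.37 against -0.30, 0.00 and -0.20 (-1.51, SE 0.12, limma adjusted p = 4.12e-05). Id2 fell by 2.23 (SE 0.25, limma adjusted p = 0.000222) and Id3 by 1.46 (SE 0.18, limma adjusted p = 0.000337), and neither gene had overlapping groups. The 1 higher gene was Bambi, a pseudoreceptor gene, with 0.30 (limma adjusted p = 0.0495), a call lost with the replicate block (0.0716), with a robust prior (0.0518), without ESC array 1, 2 or 3 (0.111, 0.0859 and 0.133) and without N2B27 array 1, 2 or 3 (0.052, 0.0576 and 0.173).

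Of 25 BMP ligand, receptor and mediator genes, 8 rose and 4 fell (median 0.11). Bmp7, a ligand gene, rose from -0.95, -0.92 and -0.75 to 0.99, 0.83 and 1.33 (1.92, SE 0.12, limma adjusted p = 1.28e-05). Bmp8b fell by 1.06 and Gdf3, a ligand gene of pluripotent cells, by 1.44. Rgma, a BMP coreceptor gene, rose by 1.16 (SE 0.06). Bmpr1a itself rose by 0.42 (SE 0.09, limma adjusted p = 0.00474), from 0.37, 0.16 and 0.25 to 0.61, 0.68 and 0.76.

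WNT genes showed no common direction. Of 29, 9 rose and 5 fell (3 without N2B27 array 1, 2 or 3 and 8 with array weights), and the median was -0.02, or 0.00 to 0.04 without ESC array 1 or 2 or N2B27 array 1 or 3. Sfrp1, a secreted WNT antagonist gene, rose by 1.43 and Fzd2 by 1.19, while Notum, which encodes an enzyme that inactivates WNT and is a WNT target, fell by 1.52 (-1.04 without ESC array 1, which read 2.09 against 0.89 and 0.39). Ccnd1, the cyclin D1 gene, fell by 1.33. Of 11 hedgehog genes, 3 rose and 3 fell (median 0.05, or -0.04 without ESC array 1). The target Gli1 fell from 1.30, 0.56 and 0.58 to -0.68, -0.62 and -0.68 (-1.47, SE 0.18), Gli2 fell by 0.74, and Smo, the signal transducer gene, rose by 1.21.

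Retinoid genes were called about as often as genes in all, and hormone response genes more often (31.8% and 47.1% against 26.1%). Of 22 retinoic acid genes, 4 rose (2 without ESC array 1) and 3 fell (5 without ESC array 3), with a median of 0.05. Dhrs3, which encodes the enzyme that returns retinal to retinol, rose by 1.32 (SE 0.16) and Rara, a retinoic acid receptor gene, fell by 0.77 (SE 0.12). Crabp2 read -0.95, -0.63 and -0.88 against 1.94, 1.55 and 1.44, whereas Crabp1, its relative, fell by 0.49. Of 17 genes of thyroid and glucocorticoid hormone responses, 5 rose and 3 fell (5 without ESC array 1 and 6 with array weights), with a median of 0.00. The furthest change in this list was a fall, -2.93 for Sgk1, which is also in the LIF and STAT3 list. Thra, a thyroid hormone receptor gene, rose by 1.16, Zbtb16 by 1.07 and the clock gene Per1 by 0.89.

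Neural transcription factors were called about as often as genes in all, 21.6% against 26.1%. Of 37, 5 rose (8 with array weights), 3 fell and 29 were not called, with a median of 0.06. Zfp521, a factor gene that promotes neural entry, rose from -0.98, -0.81 and -0.76 to 0.38, 0.69 and 0.72 (1.45, SE 0.11, limma adjusted p = 3.27e-05). Nr2f2 rose by 1.30 (SE 0.11) and Sox4 by 0.85 (SE 0.15). Their N2B27 arrays all lay above the ESC arrays.

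Sox1, the earliest specific gene of the neural plate, rose by 0.33, from -0.32, -0.23 and -0.09 to 0.13, 0.16 and 0.05 (SE 0.08, limma adjusted p = 0.0164). The call was lost without ESC array 1 (0.27, limma adjusted p = 0.064) or 2 (0.32, 0.0523) and without N2B27 array 2 (0.31, 0.0572). Pax6 read 0.58, 0.00 and -0.41 against 0.21, 0.29 and -0.52, and Nes, the nestin gene, -0.98, 0.23 and 0.06 against -0.38, -0.06 and -0.33. The media overlapped for both (differences of -0.06 and -0.03, limma adjusted p = 0.922 and 0.976). Hes5, a Notch target gene of progenitors, differed by 0.09 (limma adjusted p = 0.664) and Fabp7 by 0.03 (0.916). Of these 5 defining progenitor markers, 1 was thus higher and none was lower.

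Among other genes of neural progenitors, increases outnumbered decreases. Of 21, 11 rose, 2 fell and 8 were not called, 61.9% against 26.1% of all genes, with a median of 0.34. Prom1, which encodes a membrane protein of progenitor cells, rose by 1.71 (SE 0.24), Msi1, an RNA-binding protein gene, by 1.58 (SE 0.17) and Dpysl2, a cytoskeletal adaptor gene of growing axons, by 1.36 (SE 0.20). Vim, the vimentin gene, fell by 1.06 (SE 0.15), from 0.46, 0.00 and -0.06 to -1.19, -0.87 and -0.70. Several of these genes are also expressed outside the nervous system.

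Notch and neurogenesis genes were called at a rate of 22.2%, against 26.1% of all genes, and those called included the receptor genes Notch1, Notch2 and Notch3. Notch2 rose by 1.63 (SE 0.16, limma adjusted p = 0.000104) and Notch1 by 0.80 (SE 0.16). Notch3 differed by 0.90 and was not called without ESC array 1 (0.85, limma adjusted p = 0.0586) or without N2B27 array 2 (0.80, 0.0642) or 3 (0.68, 0.0639). Of the 27 Notch and neurogenesis genes, 4 rose and 2 fell (median 0.09), and without any 1 of the 6 control arrays 0 or 1 fell. The effectors Hes1, Hes5, Hey1, Hey2 and Heyl were not called. Neurod1, a neurogenic factor gene, read 0.27, 0.18 and 0.13 against -0.40, -0.78 and -1.11 (-0.96, limma adjusted p = 0.0257). That call was lost without ESC array 1, 2 or 3 (0.0735, 0.0648 and 0.0547) and without N2B27 array 2 or 3 (0.066 and 0.0979).

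Neuronal genes went both ways, with 6 of 21 higher, 6 lower and 9 not called (median 0.16). Ina, a neurofilament-type gene, fell by 1.74 (SE 0.24), Gap43, a growth cone gene, by 1.22 (SE 0.14) and Tubb3, the neuronal tubulin gene, by 1.02 (SE 0.22, limma adjusted p = 0.00653). Tubb3 read -0.01, -0.25 and -0.55 against -1.27, -0.84 and -1.76. Among the 5 defining neuronal markers, Map2 rose (0.54), Tubb3 and Stmn2 fell (-1.02 and -0.61), and Dcx (0.04) and Elavl3 (0.22) were not called.

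Genes of axon guidance, which epithelial and epiblast cells also use, held large single changes. Of 43, 11 rose (19 with array weights), 4 fell and 28 were not called (median 0.18), 34.9% called against 26.1% of all genes. Sema3c read -0.83, -0.25 and -0.49 against 1.99, 1.78 and 2.19 (SE 0.33, limma adjusted p = 0.000468), and Sema3e rose by 1.58 (SE 0.18). Epha2, an ephrin receptor gene of ESCs, fell from 0.63, 0.49 and 0.34 to -2.23, -2.27 and -2.16 (-2.71, SE 0.16, limma adjusted p = 8.76e-06) and Epha4 by 1.60. The media did not overlap for the 2 semaphorins or the 2 ephrin receptors.

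Few mesoderm and endoderm markers were called. Of 25 primitive streak and mesoderm genes, 2 rose and 1 fell (median 0.00), 12% against 26.1% of all genes. With the replicate block 4 fell, with array weights 4 rose and 5 fell, with the 6 control arrays alone 5 fell, under quantile normalization 2 fell, and without N2B27 array 1, 4 rose. Tcf15, a factor gene first expressed at exit from naive pluripotency, fell by 1.57 (SE 0.13). None of the defining markers Mixl1, Eomes, Mesp1, Tbx6 and Kdr was called (-0.66 to 0.01).

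Of 24 endoderm genes, 1 rose and 1 fell (median 0.08, 8.33% called). Dab2, an endocytic adaptor gene, rose by 0.73, and the 1 lower gene was Apob at -0.18, whose call was lost with the replicate block (limma adjusted p = 0.0615), with the 6 control arrays alone (0.0603), and without ESC array 1, 2 or 3 (0.0759, 0.0758 and 0.14) or N2B27 array 1 or 2 (0.0832 and 0.153). With array weights 6 endoderm genes rose, and with the block 4 did, among them Sox17 (0.24, limma adjusted p = 0.0287 with the block, 0.0992 in the fit of all arrays without it, and 0.0425 with the 6 control arrays alone), and without ESC array 1 or N2B27 array 1, 2 rose. Gata6 differed by 0.14, Foxa2 by 0.18, Gata4 by 0.02 and Afp by 0.04, none called.

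Of 19 trophoblast genes, 6 fell and none rose (median -0.16), 31.6% called against 26.1% of all genes. With the replicate block, with the 6 control arrays alone, with array weights or without N2B27 array 1, 1 rose. Tfap2c, a factor gene of trophoblast, germ cells and naive ESCs, fell by 2.16 (SE 0.12, limma adjusted p = 7.71e-06), Krt19 by 1.16 and Ascl2 by 0.98, while Cdx2 (-0.18) was not called. Of 15 neural crest and placode genes, 3 rose and 2 fell (median 0.07), 33.3% called. Erbb3, a neuregulin receptor gene, rose by 1.32 and Six4 fell by 0.55.

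Because the labels do not say whether feeder cells were present, fibroblast markers were counted. Of 24, 4 rose (7 under quantile normalization, with array weights or with the 6 control arrays alone), 5 fell and 15 were not called (median 0.06). The share called was 37.5%, against 26.1% of all genes. The median over the list ran from -0.02 to 0.06 on the ESC arrays and from 0.03 to 0.11 on the N2B27 arrays. Of the 6 defining markers, Col1a1 fell by 1.35 (SE 0.18; -1.10 without ESC array 1, which read 1.74 against 0.85 and 1.17), Thy1 rose by 1.10, and Col1a2, Col3a1, Postn and Lum were not called (0.02 to 0.29). Timp1 and Fn1 fell by 1.54 and 1.26, and Mmp2 rose by 1.23. The part of feeder cells in other results was not tested.

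**Figure D4:**
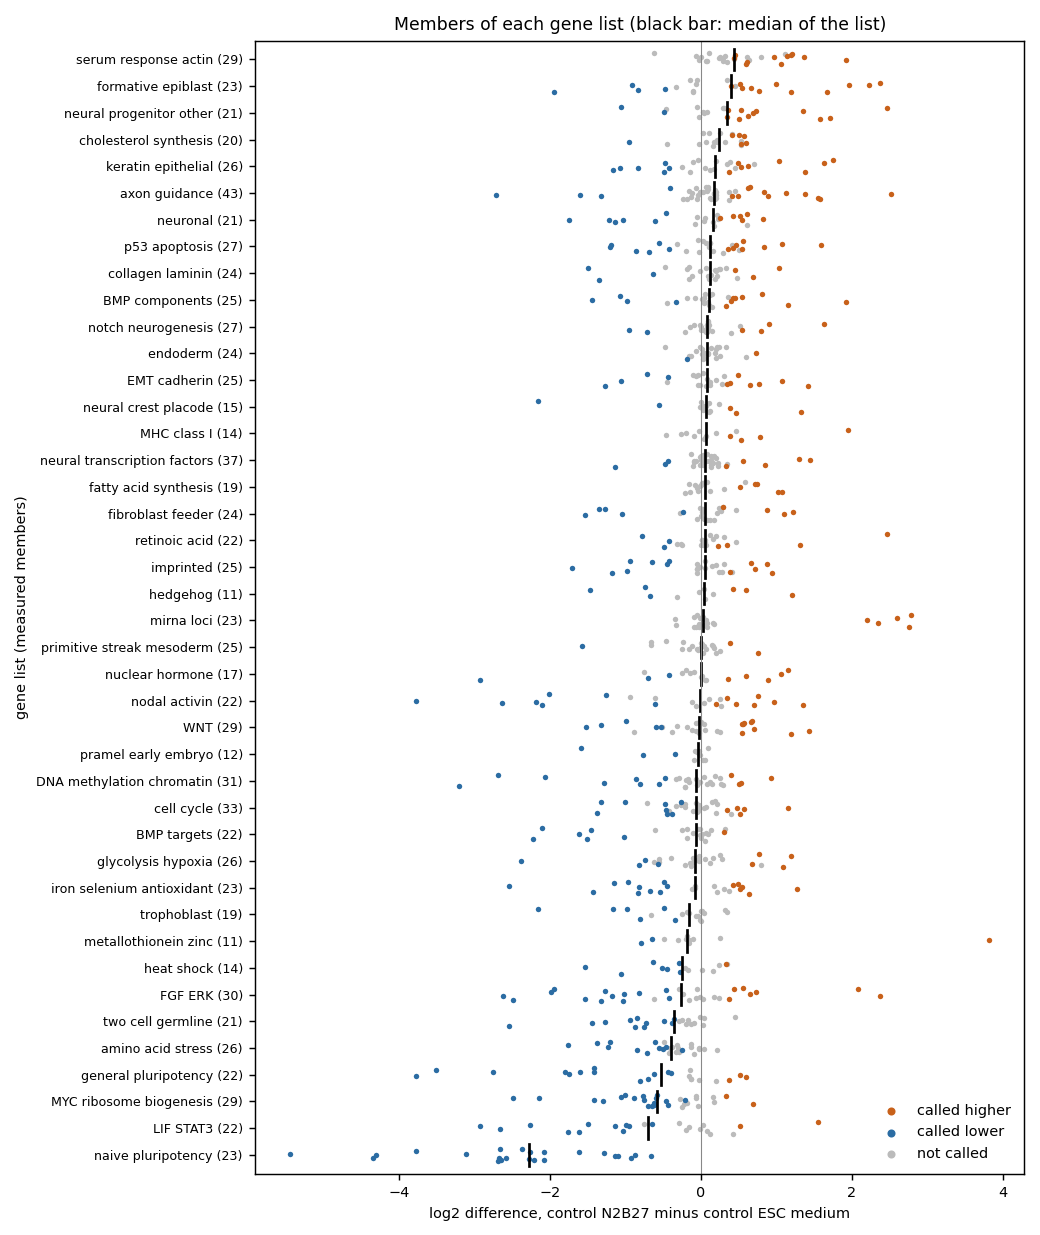
Each row is a gene list with its number of measured members, each point is a member placed at its log2 difference (horizontal axis), and the black bar is the median of the list. Naive pluripotency lies wholly below 0 (median -2.27), followed by LIF-STAT3 (-0.70) and the MYC and ribosome biogenesis genes (-0.58), while the actin and serum response genes lie highest (0.43).

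Actin cytoskeleton and serum response genes were called higher more often than genes in all, although N2B27 holds no serum. Of 29, 11 rose, none fell and 18 were not called (median 0.43), 37.9% against 12.8% of all genes called higher. With the replicate block or array weights 1 fell. The median over the list was -0.28 to -0.10 on the ESC arrays and 0.05 to 0.42 on the N2B27 arrays, and the median difference was 0.32 without N2B27 array 1. Lats2, a kinase gene of the Hippo pathway that YAP and TEAD factors induce, read -0.76, -0.55 and -0.58 against 1.39, 1.21 and 1.27 (1.92, SE 0.22, limma adjusted p = 0.00022).

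Myl9, a myosin light chain gene, read -0.82, -0.31 and -0.38 against 1.26, 0.34 and 0.53 (1.21, SE 0.29, limma adjusted p = 0.0125). Ccn1 (Cyr61), a YAP target gene, read -0.93, -0.93 and -0.79 against 1.06, 0.05 and 0.32 (1.36, SE 0.34, limma adjusted p = 0.0143). Array 1 was the highest N2B27 array for both. Without it Myl9 stayed called (0.94, limma adjusted p = 0.0435) and Ccn1 did not (1.07, 0.0524). Acta2, the smooth muscle actin gene, had 1.2 (limma adjusted p = 0.0344) and was not called without ESC array 1, 2 or 3 (0.0596, 0.092 and 0.0934) or N2B27 array 1 or 3 (0.126 and 0.1).

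The promoters of this list held motifs of the 2 factor families known to regulate it. The CArG box bound by SRF occurred on either strand in 5 of 22 promoters (22.7%), against 1.25% of all 15561. The TEAD motif GGAATG, on either strand, occurred in 10 of 22 (45.5%), against 11.3% of all. Of the 15 motifs counted over 10 lists, these and the STAT motif were chosen for printing after the counts were seen, and genes entered this list because they are known SRF or TEAD targets, so the counts describe the list and test nothing. The promoters of Myl9 and Ccn1 are shown, 250 bases each from RefSeq (GRCm38.p6), with the CArG box of Myl9 (chr2:156775214-156775463, plus strand) and the TEAD motif of Ccn1 (chr3:145649986-145650235, minus strand, read as CATTCC) in capitals.
Myl9: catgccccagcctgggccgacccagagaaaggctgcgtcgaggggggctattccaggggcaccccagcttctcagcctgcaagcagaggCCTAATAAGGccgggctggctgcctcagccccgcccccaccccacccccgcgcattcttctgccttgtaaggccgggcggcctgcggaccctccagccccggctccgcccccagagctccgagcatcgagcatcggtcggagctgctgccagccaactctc
Ccn1: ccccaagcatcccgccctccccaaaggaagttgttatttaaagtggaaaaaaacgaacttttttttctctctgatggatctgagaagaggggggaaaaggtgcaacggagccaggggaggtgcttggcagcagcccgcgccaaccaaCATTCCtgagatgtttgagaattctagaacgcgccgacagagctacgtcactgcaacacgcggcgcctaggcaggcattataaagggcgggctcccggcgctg
The matches begin 161 and 103 bases before the start.

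Epithelial junction genes rose in part. Of 26 keratin and epithelial genes, 8 rose and 6 fell (median 0.19). Cldn3, a tight junction gene, rose from -0.86, -0.91 and -0.67 to 1.41, 0.69 and 0.72 (1.75, SE 0.21, limma adjusted p = 0.000267), Crb3, an apical polarity gene, by 1.63 (SE 0.21), and Rab25, a gene of apical recycling, by 1.37 (SE 0.16). Keratin 19 (Krt19) read -0.26, 0.63 and 0.59 against -0.82, -0.97 and -0.74.

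Among 25 cadherin and mesenchymal transition genes, 7 rose and 4 fell (median 0.08). Cdh3, the P-cadherin gene, rose by 1.42 and Itgb5, an integrin gene, by 1.08, while Fn1, the fibronectin gene, fell by 1.26. Of 24 collagen, laminin and basement membrane genes, 3 rose (6 with the replicate block, 5 with the 6 control arrays alone and 9 with array weights) and 3 fell (median 0.12). That is 25% called, against 26.1% of all genes. Nid1, the nidogen gene, fell by 1.49 (-1.07 without ESC array 1, which read 1.55 against 0.23 and 0.36), and Fras1, an extracellular matrix gene, rose by 1.03.

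Most growth genes fell. Of 29 MYC family and ribosome biogenesis genes, 18 fell, 2 rose and 9 were not called (median -0.58), 69% called against 26.1% of all genes. Without any 1 of the 6 control arrays, or under quantile normalization, 1 of them rose. Myc read 1.06, 1.21 and 0.86 against -1.71, -1.21 and -1.40 (-2.48, SE 0.28, limma adjusted p = 0.000225), and Mycn 0.63, 0.90 and 0.64 against -1.66, -1.21 and -1.38 (-2.14, SE 0.22, limma adjusted p = 0.000131). Neither had overlapping groups. Mycl, the third paralogue, rose by 0.69 (SE 0.16). Polr1b, a subunit gene of RNA polymerase I, fell by 1.41 and Bop1, a ribosome assembly gene, by 1.29.

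Cell cycle genes fell at the G1 phase cyclins. Of 33, 5 rose and 8 fell (median -0.07), 39.4% called against 26.1% of all genes. Without ESC array 1 or 2, or without N2B27 array 3, 3 rose, and with array weights 8 did. Ccne1, the cyclin E1 gene, fell from 0.71, 0.54 and 0.42 to -1.10, -0.63 and -0.74 (-1.38, SE 0.20, limma adjusted p = 0.000872) and Ccne2 by 1.00 (SE 0.13). Cdkn1b (p27), an inhibitor gene of the G1 kinases, rose by 1.15 (SE 0.23, limma adjusted p = 0.00454), from -0.71, -0.52 and -0.38 to 0.52, 0.59 and 0.72.

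Of 27 p53 and apoptosis genes, 8 rose (5 without ESC array 3) and 6 fell (median 0.12). Gadd45b, a stress response gene, rose by 1.60 (SE 0.36), and Btg2, an antiproliferative gene, by 1.07 (SE 0.22), while Gadd45a fell by 1.19 (SE 0.20). Cdkn1a was not analysed here.

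Metabolic genes changed in small groups. Of 26 genes of amino acid uptake, serine synthesis and the ATF4 response, 11 fell and none rose (median -0.39), 42.3% against 13.3% of all genes called lower. Slc7a1, the arginine transporter gene, fell by 1.76 (SE 0.19), Trib3, an ATF4 target gene, by 1.38 (SE 0.18), Shmt2, a mitochondrial enzyme gene of serine catabolism, by 1.24 (SE 0.16) and Sesn2 by 1.2 (SE 0.18).

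Genes of iron, selenium and antioxidant metabolism were counted because N2B27 supplies transferrin, selenium and antioxidants. Of 23, 6 rose and 10 fell (median -0.08). The labels do not give the content of the ESC medium, and the part of these supplements in the changes was not tested. Tfrc, the transferrin receptor gene, fell from 1.43, 0.60 and 0.84 to -1.70, -1.27 and -1.79 (-2.54, SE 0.24, limma adjusted p = 7.50e-05). Gpx4, the selenoenzyme gene that removes lipid peroxides, read 1.18, 1.15 and 1.18 against -0.22, -0.37 and -0.16 (-1.42, SE 0.06, limma adjusted p = 2.09e-06). Both separated fully. Sod2 fell by 1.16 (SE 0.12), and Selenop, the selenium carrier gene, rose by 1.27 (SE 0.19).

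Zinc genes, with Slc39a8 among them, were called about as often as genes in all (27.3% against 26.1%). Of 11, 1 rose (2 with the replicate block, with array weights or with the 6 control arrays alone) and 2 fell (1 without ESC array 1 or 3, without N2B27 array 2 or 3 or under quantile normalization), with a median of -0.18. The 2 lower genes were the importer gene Slc39a14 (-0.79), not called without N2B27 array 3 (-0.69, limma adjusted p = 0.0524) or under quantile normalization (-0.61, 0.0645), and the metallothionein gene Mt2 (-0.64), not called with the replicate block (0.0528), without ESC array 1, 2 or 3 (0.1, 0.0546 and 0.054) or without N2B27 array 1 or 2 (0.107 and 0.0812).

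Cholesterol synthesis genes had a median of 0.24, with 5 of 20 higher and 1 lower, 30% called against 26.1% of all genes. The count of higher genes moved from 1 to 11 with the setting. It was 8 with the replicate block and 11 with array weights, but 2, 3 and 2 without ESC arrays 1, 2 and 3 and 1 without N2B27 array 2 or 3. With the block, with array weights or with the 6 control arrays alone 2 fell. The lower gene was Ebp, a sterol isomerase gene, at -0.96 (SE 0.19), and Hmgcs1, which opens the pathway, had 0.57 (limma adjusted p = 0.0427), not called without ESC array 1, 2 or 3 (0.146, 0.0681 and 0.0662) or N2B27 array 2 or 3 (0.146 and 0.13).

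Fatty acid genes were called about as often as genes in all, 26.3% against 26.1%. Of 19 fatty acid genes, 5 rose and none fell (median 0.06, or 0.18 without N2B27 array 1 and -0.02 without array 2). Scd1, the stearoyl-CoA desaturase gene, rose from -0.65, -0.93 and -0.66 to 0.00, 0.50 and 0.49 (1.07, SE 0.18, limma adjusted p = 0.00162). Fads2 rose by 1.02 (SE 0.16) and Fads1 by 0.72 (SE 0.12), both desaturases of polyunsaturated fatty acids, and Me1, the malic enzyme gene, by 0.74. Their media did not overlap.

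In glycolysis, isoforms of phosphofructokinase changed in opposite directions. Of 26 glycolysis and hypoxia genes, 4 rose and 4 fell (7 with the replicate block or with the 6 control arrays alone), with a median of -0.08 (0.03 without N2B27 array 1). The share called was 30.8%, against 26.1% of all genes. Pfkp, the platelet-type phosphofructokinase gene, fell by 2.38 (SE 0.19, limma adjusted p = 4.12e-05), from 1.84, 1.45 and 1.61 to -0.49, -0.99 and -0.77. Pfkm, the muscle-type gene, rose by 1.19 (SE 0.16, limma adjusted p = 0.000556), from -0.86, -0.49 and -0.44 to 0.55, 0.48 and 0.75. Hk2, a hexokinase gene, fell by 0.81. Eno2 had 1.08 (limma adjusted p = 0.0304) and was not called with the replicate block (0.0737), without ESC array 1 or 2 (0.104 and 0.0909) or without N2B27 array 1 (0.1).

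Heat shock genes had 7 of 14 lower and 1 higher (median -0.24). The number lower was 4 without any 1 of the 6 control arrays or under quantile normalization, and without ESC array 1 or 2 or N2B27 array 3 none rose. With genes of 1 cluster alone the median was 0.09. Hspb1, the small heat shock protein gene, fell by 1.53 (SE 0.16, limma adjusted p = 0.000135), Hsph1 by 1.06 and Hspd1, a mitochondrial chaperonin gene, by 0.64.

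DNA methylation and chromatin genes were called more often than genes in all, 38.7% against 26.1%. Of 31 DNA methylation and chromatin genes, 8 fell, 4 rose (8 with array weights) and 19 were not called (median -0.07). Dnmt3l read 1.39, 1.08 and 0.80 against -1.48, -2.69 and -2.17 (SE 0.29, limma adjusted p = 6.73e-05). Tet1 fell from 1.96, 1.19 and 1.22 to -0.84, -0.55 and -0.43 (-2.07, SE 0.18, limma adjusted p = 6.47e-05). Mtf2, an accessory subunit gene of Polycomb complex PRC2, fell by 1.28 (SE 0.09), and Ezh1, a catalytic subunit gene, rose by 0.92 (SE 0.23).

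Of 25 imprinted genes, 5 rose (3 without N2B27 array 1) and 7 fell, and the median was 0.05 (-0.05 without N2B27 array 1). Phlda2, a growth-restricting gene of the placenta, fell from 1.76, 1.61 and 1.72 to 0.00, -0.23 and 0.22 (-1.70, SE 0.11, limma adjusted p = 1.21e-05), Peg10 by 1.17 (SE 0.12) and Gab1 by 0.94.

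Many germline genes fell. Of 21 genes of the germ line and of the 2-cell-like state, 11 fell and none rose (median -0.35), 52.4% against 13.3% of all genes called lower. Mael, of the piRNA pathway, fell from 1.29, 1.13 and 1.13 to 0.68, -0.79 and -0.66 (-1.44, SE 0.33), with N2B27 array 1 nearest to the ESC arrays. Hormad1, a meiotic axis gene, fell by 1.27 (SE 0.18) and Dazl, a germ cell RNA-binding protein gene, by 0.94 (SE 0.14). Rpl10l fell by 2.54 but is a near copy of Rpl10. Pramel and early embryo genes had 25% called, against 26.1% of all genes, or 13.3% called lower. Of 12, 3 fell (1 without N2B27 array 1 or 3), none rose and the median was -0.04. Calcoco2, the largest, fell by 1.58 (SE 0.19).

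Of 14 genes of MHC class I presentation, 4 rose and none fell (median 0.06). That is 28.6% called, against 26.1% of all genes, or 12.8% called higher. Without N2B27 array 1, with array weights or under quantile normalization, 1 fell. B2m, the light chain gene, read -0.75, -0.14 and 0.00 against 2.10, 1.12 and 1.76 (1.95, SE 0.44, limma adjusted p = 0.00856; 1.73 without N2B27 array 1). Tap1, a peptide transporter gene, rose by 0.78 (SE 0.11). H2-Q2 rose by 0.53, but class I heavy chain genes resemble each other closely and probes may not separate them.

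Whether control and mutant cells changed alike on entering N2B27 was tested with the interaction, the mutant change minus the control change. An interaction can come from a difference between the lines in ESC medium as well as from one in N2B27. Mutant and control cells are different lines, so genotype and line cannot be told apart. Of 19935 genes 422 were called (2.12%), and 2725 had an unadjusted p under 0.05. The count was 171 without control ESC array 2, 183 without control ESC array 3, 199 and 196 without control N2B27 arrays 2 and 3, 59 and 162 without mutant ESC arrays 2 and 3, 227 under quantile normalization and 1782 with array weights. Of the 692 genes called in control with a difference of at least 1, 672 had the same sign in the mutant, 603 were also called in that direction there, and 40 were called in the interaction.

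The naive list showed no called interaction among its 23 genes, with medians of -2.27 in control and -2.14 in mutant. Only 2.12% of all genes were called, so an absence of calls in a list of this size does not show equal change. The array medians of the list in N2B27 were -0.64 to -0.63 in control and -0.35 to -0.20 in mutant. In ESC medium they were 1.41 to 1.74 in control and 1.88 and 1.81 in mutant. Peg10 fell by 1.17 in control and differed by 0.37 in mutant, an interaction of 1.55 (SE 0.18, limma adjusted p = 0.00363). Bmp8b differed by -1.06 against 0.26 (1.32, SE 0.18, limma adjusted p = 0.00904), Gap43 by -1.22 against 0.34 (1.56, SE 0.21, limma adjusted p = 0.00843) and Epha2 by -2.71 against -1.10 (1.60, SE 0.24, limma adjusted p = 0.0119). For Bmp8b the means in N2B27 were -0.23 in control and -0.22 in mutant, and in ESC medium 0.84 and -0.48. Nr2f2 rose in control (1.30) and had 0.17 in mutant (-1.14, SE 0.16, limma adjusted p = 0.0104), and Krt19 fell in control (-1.16) and had 1.42 in mutant (2.58, SE 0.41, limma adjusted p = 0.0143). The interaction of Peg10 stayed called when each of the 11 arrays was left out in turn. Without mutant ESC array 2 the others were not called (limma adjusted p = 0.0631 for Bmp8b, 0.0571 for Gap43, 0.075 for Epha2, 0.0635 for Nr2f2 and 0.0862 for Krt19), and under quantile normalization Epha2 was not (0.236).

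Lists differed in how many members were called in the interaction, beside 2.12% of all genes, and those with 5 or more are given. The interaction was called for 5 of 12 Pramel and early embryo genes, with list medians of -0.04 in control and -0.59 in mutant. The array medians of this list in ESC medium were 0.59 and 0.60 in mutant and 0.01 to 0.07 in control. In N2B27 they overlapped, with -0.06 to 0.01 in mutant and -0.04 to -0.03 in control. Among imprinted genes 5 of 25 were called (0.05 and 0.28), and among axon guidance genes 5 of 43 (0.18 and 0.31). In N2B27 the array medians of the imprinted list were 0.19 to 0.26 in mutant and -0.01 to 0.02 in control. In ESC medium they were -0.01 and 0.00 in mutant and 0.05 to 0.06 in control. Those of the axon guidance list were -0.19 and -0.20 in mutant ESC medium and -0.08 to 0.00 in control, and they overlapped in N2B27. In the FGF-ERK list the interaction was called for 9 of 30 genes, with list medians of -0.26 in control and 0.16 in mutant. Its array medians in ESC medium were -0.03 and -0.02 in mutant and 0.00 to 0.12 in control. In N2B27 they were -0.08 to 0.19 in mutant and -0.29 to -0.14 in control. Dusp6, an ERK phosphatase gene, differed by -0.06 in control and 1.60 in mutant (limma adjusted p = 0.0145), and Spry2, an ERK feedback gene, by -1.98 and -0.37 (0.0143). In the actin and serum response list it was called for 7 of 29, with medians of 0.43 and 1.42, and Zyx, the zyxin gene of focal adhesions, differed by 0.29 and 1.76 (limma adjusted p = 0.00348). The array medians of this list in ESC medium were -0.84 and -0.97 in mutant and -0.28 to -0.10 in control. In N2B27 they overlapped, with 0.00 to 0.73 in mutant and 0.05 to 0.42 in control. In the keratin and epithelial list the interaction was called for 6 of 26, with medians of 0.19 and 0.93, and Krt8, the partner of keratin 18 and 19, fell by 0.49 in control and had 1.94 in mutant (limma adjusted p = 7.99e-05). Its array medians in ESC medium were -0.72 and -0.55 in mutant and -0.06 to -0.04 in control. In N2B27 the list had overlapping ranges, 0.03 to 0.33 in mutant and 0.00 to 0.24 in control. These 4 genes were named after their values were seen, and their interaction was not refitted without single arrays.

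**Figure D5:**
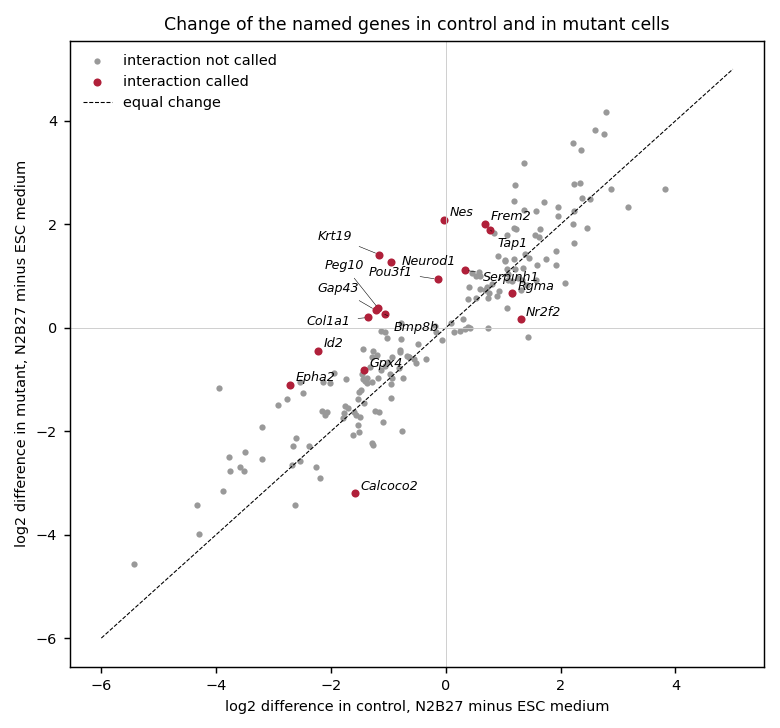
Each point is 1 of the 186 named genes, with its log2 difference (N2B27 minus ESC medium) in control cells on the horizontal axis and in mutant cells on the vertical axis. The 17 red points were called in the interaction, from -1.62 for Calcoco2 to 2.58 for Krt19, and the dashed line marks equal change.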

How the data were processed

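The deposited values are log2 signals per transcript cluster, which the authors deposited. The submitters' processing notes name RMA and Affymetrix Expression Console 1.2. That the scale is log2 follows from RMA's usual output. Each cluster carries a baseline of its own, set in a way not given in the sources used here. Brightness is therefore lost, no filter on dim clusters was possible, and precision depends on how many arrays there are.

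Of 28815 clusters, 21780 have 1 gene symbol in the platform annotation, 1605 several and 5430 none. Of those with 1 symbol, 21689 matched RefSeq (GRCm38.p6) by Entrez identifier. Clusters of a gene were averaged, giving 19935 genes. Group means of all 11 arrays were fitted with limma 3.58.1 (lmFit, eBayes; 7 residual degrees of freedom, prior 3.02) in R 4.3.3, two-sided, with Benjamini-Hochberg adjustment over all genes. The scripts were tested on simulated data.

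The comparison, the 42 gene lists and the rule for names were chosen with earlier results of these data known. Named genes are the 12 largest called changes each way without overlap (predicted genes, small RNAs and symbols on several loci left out), up to 4 called members of each list (or the 2 largest where none was called), the called member furthest against its list's median, and 30 fixed genes. Not all of them are described. Same-numbered arrays were taken as pairs because all 3 correlations of their deviations exceeded 0.1. Brachyury was not analysed here.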

Additional observations from a re-analysis of the deposited data

Results flagged for a closer look

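For 17 of the 186 named genes the change on entering N2B27 differed between mutant and control cells by the interaction test (limma, adjusted p under 0.05 over all genes). The value given is the mutant change minus the control change on the log2 scale, and genotype cannot be told apart from cell line. Of 19935 genes 2.12% were called in this test.

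The change was more positive in mutant cells for 14 genes. The interaction was 2.58 for Krt19, 2.23 for Neurod1, 2.11 for Nes, 1.79 for Id2, 1.60 for Epha2, 1.56 for Gap43 and 1.55 for both Peg10 and Col1a1. It was 1.32 for Bmp8b and for Frem2, 1.11 for Tap1, 1.08 for Pou3f1, 0.78 for Serpinh1 and 0.60 for Gpx4. The change was more negative in mutant cells for Calcoco2 (-1.62), Nr2f2 (-1.14) and Rgma (-0.49).

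The stability of these calls differed. When each of the 11 arrays was left out in turn, Peg10 was called 11 times, Bmp8b, Epha2, Gap43, Gpx4, Krt19 and Nr2f2 10 times, Frem2 and Tap1 9 times, and Col1a1 7 times. Calcoco2, Rgma and Serpinh1 were called 6 times, Neurod1 5 times, Id2 and Pou3f1 3 times and Nes 2 times. For the 6 genes called 10 times, the call was lost without mutant ESC medium array 2 (limma adjusted p = 0.0571 to 0.0943). Under quantile normalization Calcoco2, Epha2, Frem2, Gpx4, Id2, Nes, Pou3f1, Serpinh1 and Tap1 were not called, and with a robust prior Pou3f1 was not.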

How the results depend on the processing

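The number of genes called between the media of control cells ranged from 3987 to 7107 over all settings tried, within 1.5 times 5205, and 47.2% to 51.6% of calls were higher. Leaving out 1 control array gave 3987 to 4509 calls, and the replicate block, with same-numbered arrays as pairs, gave 5835, of which 4781 were shared with 5205. Beside the changes already given, the block altered only the call of Ptch1 (limma adjusted p = 0.0633) among the named genes.

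Of the 179 named genes that were called, 155 kept call and direction in every setting. Among uncalled genes the sign changed for Pax6 (0.016 under quantile normalization, -0.30 to 0.20 over single arrays left out), Nes (-0.40 to 0.20) and Hes5 (-0.014 to 0.15). Cdx2 was called with array weights (limma adjusted p = 0.0400).

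The 422 interaction calls varied more, with 227 under quantile normalization, 1782 with array weights and 59 to 633 over single arrays left out, lowest without mutant ESC medium array 2 and highest without mutant N2B27 array 2. The mutant group in ESC medium has 2 arrays, so leaving out 1 leaves a lone array assumed to vary like the other groups. The cause of these changes was not tested. No filter on dim probes, other background correction or other summarization could be run from centred values.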
